A study of Mus musculus with 14 samples.

Results

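Genes that mark podocytes, the filter cells of the glomerulus, were followed through renal ischemia/reperfusion injury (IRI), in which blood flow to the kidney is stopped and then restored. They were chosen by name as Nphs1, Magi2, Podxl, Ptpro, Synpo, Plce1 and Wt1, that is 7 of the 24411 genes in the count files. Bulk RNA-seq was available for 14 whole-kidney libraries of total RNA from male C57/B6 mice aged 8 weeks: 4 at day 0, 5 at day 1 and 5 at day 3 after renal IRI. All groups share strain, sex, age and tissue. The kidneys of day 0 are named controls, and no source used here says whether those mice had sham surgery. The labels do not say that each library is a separate mouse, so p-values measure only the spread between these libraries.

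Podocytes are the epithelial cells that cover the capillaries of the glomerulus. Their interlocking foot processes are bridged by the slit diaphragm, a protein filter held up by an actin skeleton and anchored to the glomerular basement membrane, and they are known for losing foot processes and markers when the filter is damaged. They make up a small share of kidney cells, and renal IRI is known mainly as an injury of the tubules. Several of the genes are also made elsewhere: Podxl by endothelium and mesothelium, Wt1 by parietal epithelium and mesothelium, Ptpro by B cells and macrophages, and Plce1 by many cell types.

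Between 12485579 and 20476979 reads per library lay on genes, and each member had at least 56 reads in every library. The library numbers in the names have 1 digit in all day 0 libraries, in day 1 replicates 3 to 5 and in day 3 replicates 4 and 5, and 3 digits in day 1 replicates 1 and 2 and day 3 replicates 1 to 3. What this number format stands for is not given in the sources used here. Of the 14300 genes tested, 35.0% differed between the formats at day 1 and 18.5% at day 3, so the members' values are also given within formats, as are calls or counts of other genes. Omitting 1 library moved these counts, and omitting a library of a format with 2 in that day leaves 1, whose spread is then taken from the other groups. At day 1 the count of 5001 genes became 1997 without replicate 2. At day 3 the count of 2645 genes became 91 without replicate 5 and 4771 without replicate 1, and replicate 1 differed less from replicate 4 of the other format (chi-square over degrees of freedom 48.3) than from replicates 2 and 3 of its own (144 and 55.5). Because day 0 holds 1 format only, day and format cannot be told apart when 3-digit libraries are set against day 0.

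Positions are those of GRCm38 (GENCODE M21). Nphs1 was at chr7:30458315-30487223 on the plus strand, Magi2 at chr5:19227036-20704792 (plus), Podxl at chr6:31519488-31563981 (minus), Ptpro at chr6:137252319-137463233 (plus), Plce1 at chr19:38481109-38785030 (plus) and Wt1 at chr2:105126529-105173616 (plus). The antisense gene Nphs1os overlaps 5 exons of Nphs1. Counting by strand keeps them apart, and the unstranded count of Nphs1 was lower than the stranded one in each library (292 against 369 reads in day 0 replicate 1). Magi2 overlaps small genes of both strands, none of them in the count files. One of these, the noncoding Gm29254 at the 3' end of Magi2, lies on the same strand and overlaps 7 annotated Magi2 exons, so reads of it could not be told apart from those of Magi2.

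The start regions of the slit diaphragm genes Nphs1 and Magi2 are shown because these were the members called lower than at day 0 in any comparison. They are the 250 bases before the RefSeq start (GRCm38.p6, plus strand), for Nphs1 at chr7:30459808-30460057 and for Magi2 at chr5:19226796-19227045, the first of its windows. Capitals mark matches on either strand to GNGNGGGNG, whose other strand reads CNCCCNCNC, letters in the style of WT1 and EGR zinc finger sites.
Nphs1: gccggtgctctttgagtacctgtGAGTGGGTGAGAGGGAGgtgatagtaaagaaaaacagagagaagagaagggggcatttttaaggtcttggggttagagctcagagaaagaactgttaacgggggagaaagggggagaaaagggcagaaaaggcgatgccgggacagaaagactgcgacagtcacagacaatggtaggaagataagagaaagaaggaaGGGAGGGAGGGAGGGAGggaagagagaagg
Magi2: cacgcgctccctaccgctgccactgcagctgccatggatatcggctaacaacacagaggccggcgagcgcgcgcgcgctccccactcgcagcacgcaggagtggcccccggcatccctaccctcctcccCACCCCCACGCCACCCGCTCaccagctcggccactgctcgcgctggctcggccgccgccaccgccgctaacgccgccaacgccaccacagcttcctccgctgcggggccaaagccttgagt
The Nphs1 window held 5 matches, some overlapping, starting 227, 219, 30, 26 and 22 bases before the start, with a GC content of 50.8%. The Magi2 window held 3 matches on the other strand, of which the first 2 overlap, starting 121, 119 and 110 bases before the start, with a GC content of 72.0%. Such letters stood in 35.8% of 32851 RefSeq windows of this length, so a match is a description and not a site. Entries were found for 4 of the 7 members: Ptpro had 4 overlapping matches within 1 run of G, the second Magi2 window 2 and Plce1 0.

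At day 0 the members spanned a wide range of levels per length of exon (CPM, the reads of a gene per 1000000 reads of its library after TMM scaling, per kb). Podxl stood highest at 32.0 ± 2.59 CPM per kb (SD, n = 4), followed by Nphs1 at 3.25 ± 0.527 and Synpo at 3.17 ± 0.346. Wt1 at 0.982 ± 0.131, Ptpro at 0.963 ± 0.700 and Magi2 at 0.834 ± 0.101 came next, and Plce1 was lowest at 0.397 ± 0.0451. The ranges of Nphs1 and Synpo overlapped, as did those of Wt1, Ptpro and Magi2, whereas Podxl lay above all others and Plce1 below all others in each day 0 library. At day 1 the mean per length of Magi2 (0.436) was below that of Plce1 (0.522), with overlapping ranges, and Synpo (5.08) was above Nphs1 (2.98).

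After injury the members did not move as 1 group. At day 1, Magi2 was lower than at day 0 and the other 6 did not pass the test. At day 3, Synpo was higher than at day 0 and the other 6 did not pass. That call of Synpo was lost when certain single libraries were left out, and in some other settings given below. A call was an adjusted p-value under 0.05 in edgeR's quasi-likelihood test (Benjamini-Hochberg over all 14300 genes). The members' counts of 1 of 7 at each day stood beside 42.1% of all genes tested at day 1 and 33.3% at day 3. The median log2 fold change over the members was 0.02 at day 1 and 0.26 at day 3, beside 0.01 and 0.05 over all genes. Both comparisons share the day 0 libraries. In whole kidney, fewer podocytes and less RNA per podocyte cannot be told apart.

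**Figure D1:**
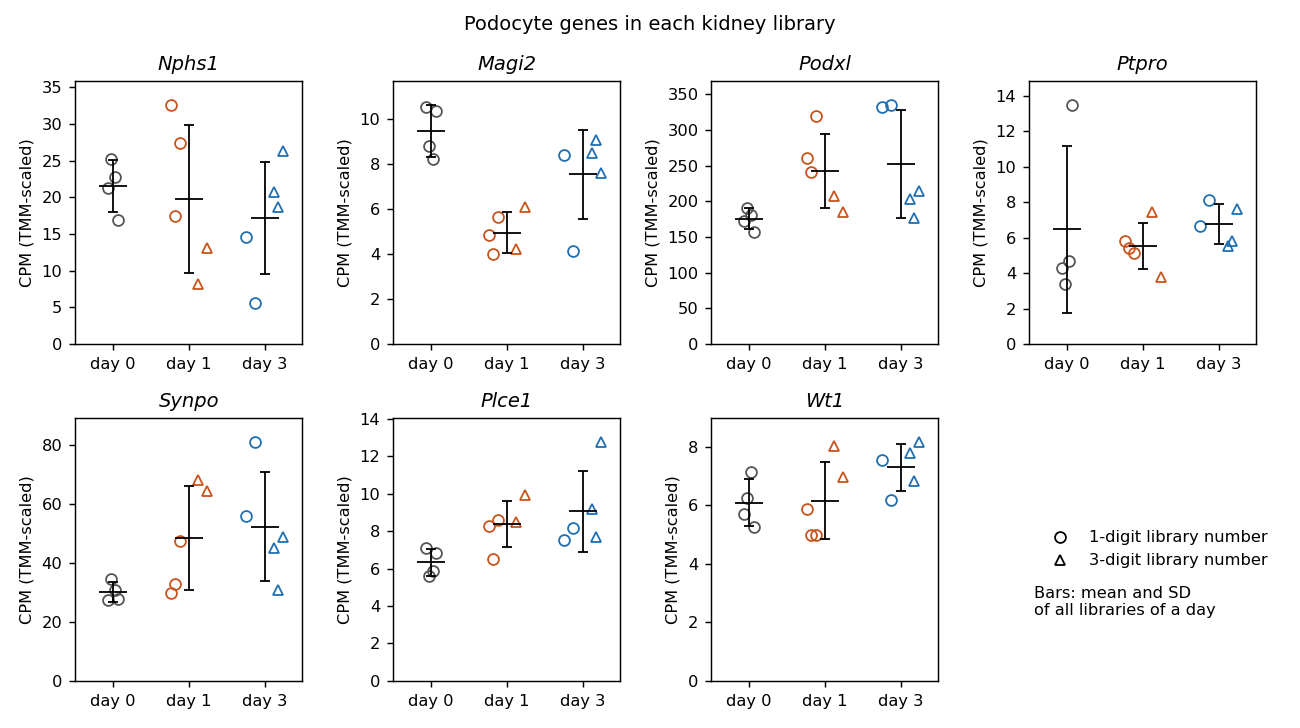
Level of each member (CPM, TMM-scaled, linear axis from 0) in each library at day 0, day 1 and day 3. Circles are libraries with 1-digit numbers and triangles those with 3-digit numbers; bars are the mean and SD of a day. Magi2 at day 1 lies below every day 0 library, and the Nphs1, Podxl and Synpo symbols separate by number format within days 1 and 3.

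Nphs1 encodes nephrin, the adhesion protein that spans the slit diaphragm. At day 0 its level was 21.2, 25.2, 22.7 and 16.9 CPM in replicates 1 to 4. At day 1 it was 8.19 and 13.0 CPM in the 3-digit libraries and 32.6, 17.5 and 27.3 CPM in the 1-digit libraries. At day 3 it was 20.7, 18.7 and 26.2 CPM in the 3-digit libraries and 14.6 and 5.66 CPM in the 1-digit libraries. The days overlapped throughout, while the formats did not overlap within either day and stood in opposite order. Neither day differed from day 0 with all libraries pooled: the log2 fold change was -0.13 (95% interval -0.99 to 0.73, adjusted p = 0.811) at day 1 and -0.32 (-1.18 to 0.54, adjusted p = 0.555) at day 3.

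Within formats, Nphs1 was lower than at day 0 in the 3-digit libraries of day 1 (log2 fold change -1.02, SE 0.35, adjusted p = 0.0317) and in the 1-digit libraries of day 3 (-1.08, SE 0.35, adjusted p = 0.0198). In the 1-digit libraries of day 1 the log2 fold change was 0.26 (-0.37 to 0.88, adjusted p = 0.461), and in the 3-digit libraries of day 3 it was 0.02 (-0.60 to 0.65, adjusted p = 0.961). From day 1 to day 3, Nphs1 fell by 1.34 on the log2 scale within 1-digit libraries (SE 0.37, adjusted p = 0.0152), and the 3-digit value was 1.04 (SE 0.36, adjusted p = 0.0727).

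Magi2 encodes a scaffold protein with PDZ domains that sits under the slit diaphragm and binds nephrin. Its level was 10.5, 8.77, 8.21 and 10.3 CPM at day 0. The day 1 levels were 4.20 and 6.09 CPM in the 3-digit and 4.84, 4.001 and 5.63 CPM in the 1-digit libraries, all below the lowest day 0 library. The day 3 levels were 8.50, 9.07 and 7.57 CPM in the 3-digit and 8.41 and 4.11 CPM in the 1-digit libraries, so that 1 of 5 lay at the day 1 level and the days overlapped. Magi2 fell by 0.93 on the log2 scale at day 1 (SE 0.23, 95% interval -1.43 to -0.44, adjusted p = 0.00575), to a 1.91-fold lower mean, and was lower in 5 of 5 libraries. It was the single member whose day 1 and day 0 libraries did not overlap, beside 42.0% of all genes tested.

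The fall of Magi2 at day 1 was called within both formats, with a log2 fold change of -0.98 (SE 0.25, adjusted p = 0.0043) in 1-digit and -0.88 (SE 0.28, adjusted p = 0.0234) in 3-digit libraries, and without any 1 of the 14 libraries (adjusted p from 0.00133 to 0.0206). The log2 fold change at day 3 was -0.33 (-0.82 to 0.16, adjusted p = 0.282), with -0.59 (adjusted p = 0.0875) in 1-digit and -0.18 (adjusted p = 0.603) in 3-digit libraries. Between day 1 and day 3 it was 0.61 (0.14 to 1.08, adjusted p = 0.0724), with 0.38 (adjusted p = 0.334) within 1-digit and 0.70 (adjusted p = 0.126) within 3-digit libraries. The pooled value passed the test without day 1 replicate 2 (0.70, adjusted p = 0.0450) or day 3 replicate 5 (0.74, adjusted p = 0.0114), and with total counts without TMM (0.75, adjusted p = 0.0424) or DESeq2 (0.59, adjusted p = 0.0374). Over the members, 0 of 7 differed between day 3 and day 1 by edgeR, beside 15.9% of all genes. At an unadjusted p under 0.05 the count was 1, and DESeq2 called 1, counts for which no share of all genes is given here.

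**Figure D2:**
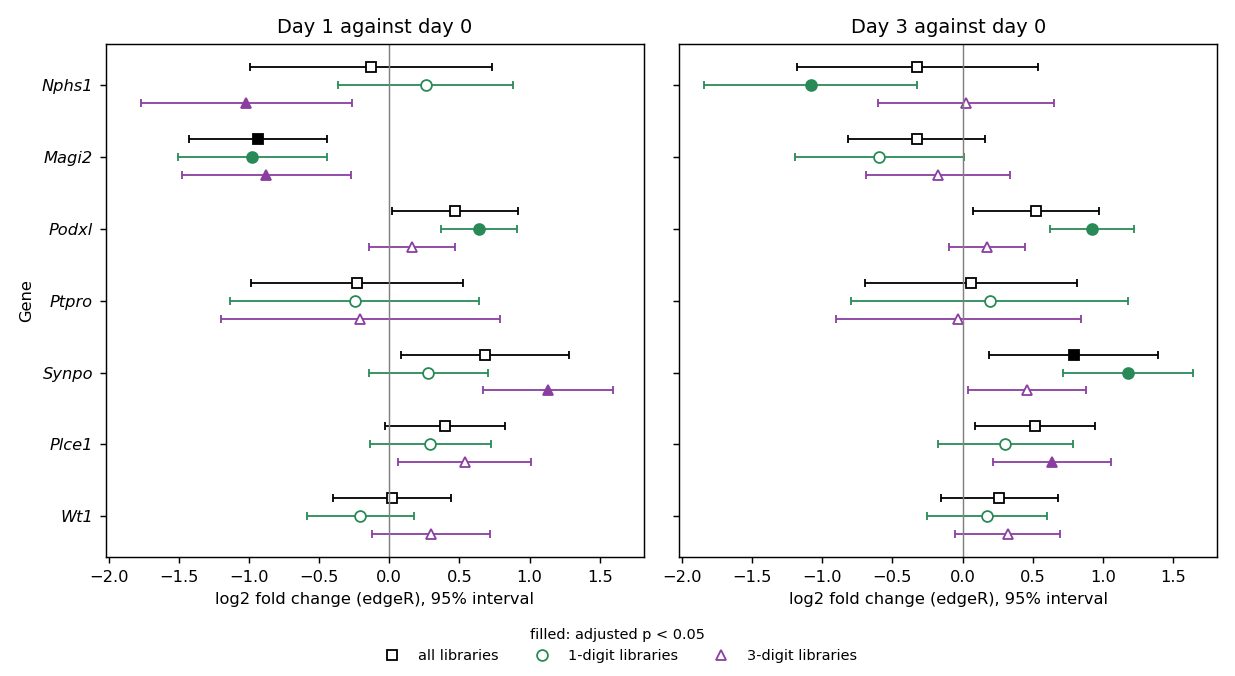
Log2 fold change of each member against day 0 at day 1 (left) and day 3 (right), with 95% intervals, for all libraries (squares), 1-digit libraries (circles) and 3-digit libraries (triangles). Filled symbols have an adjusted p under 0.05; Magi2 at day 1 is filled in each of the 3, and Nphs1, Podxl, Synpo and, at day 3, Plce1 are filled in 1 format of a day but not in the other.

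Podxl encodes podocalyxin, the charged sialomucin of the apical podocyte surface, which vascular endothelium also carries. Its level was 173, 191, 181 and 158 CPM at day 0. At day 1 it was 208 and 185 CPM in the 3-digit and 260, 241 and 320 CPM in the 1-digit libraries. At day 3 it was 203, 176 and 214 CPM in the 3-digit and 332 and 335 CPM in the 1-digit libraries. The 1-digit libraries of both days lay above all day 0 libraries and above the 3-digit libraries of their day, and the 3-digit libraries overlapped day 0. The pooled log2 fold change did not pass the test at day 1 (0.47, SE 0.21, adjusted p = 0.0855) or at day 3 (0.52, SE 0.21, adjusted p = 0.0693). It passed at day 1 without day 1 replicate 2 (0.55, adjusted p = 0.0478) and at day 3 without day 3 replicate 2 (0.63, adjusted p = 0.0247). With number format as a term Podxl was called at both days, at 0.69 (adjusted p = 0.000612) and 0.84 (adjusted p = 0.000422). It was also called at day 1 in a fit of only the 2 days compared (0.48, adjusted p = 0.0345) and at day 3 with total counts without TMM (0.66, adjusted p = 0.0174).

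Against day 0, Podxl rose in the 1-digit libraries by 0.64 at day 1 (SE 0.12, adjusted p = 0.000747) and by 0.92 at day 3 (SE 0.14, adjusted p = 0.000173), both on the log2 scale. In the 3-digit libraries the log2 fold change was 0.16 (-0.14 to 0.47, adjusted p = 0.378) and 0.17 (-0.10 to 0.44, adjusted p = 0.314). The summed level of 8 endothelial markers was 339 to 371 CPM at day 0, 463 to 550 CPM in 1-digit and 405 to 438 CPM in 3-digit libraries of day 1, and 397 to 667 CPM in 1-digit and 203 to 344 CPM in 3-digit libraries of day 3. The sum was thus higher in 1-digit than in 3-digit libraries of the same day, but the markers did not move as 1. At day 1 the 3-digit libraries were higher for 4 of the 8 markers and lower for 4, and by test Tek was higher (log2 difference 1.55, adjusted p = 0.00117) and Cdh5 and Egfl7 were lower, markers named after their values were seen. At day 3 all 8 values were below 0 and 4 were called. Their part in the Podxl result was not tested.

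Ptpro encodes a receptor tyrosine phosphatase of the apical foot process membrane. Its level was 4.31, 3.41, 4.67 and 13.5 CPM at day 0, where replicate 4 stood far above the other 3. Levels at day 1 were 7.44 and 3.82 CPM in the 3-digit and 5.79, 5.43 and 5.15 CPM in the 1-digit libraries. Levels at day 3 were 5.55, 5.80 and 7.62 CPM in the 3-digit and 6.66 and 8.15 CPM in the 1-digit libraries. All days overlapped, and formats overlapped within each day. The log2 fold change was -0.23 (-0.98 to 0.53, adjusted p = 0.622) at day 1 and 0.06 (-0.69 to 0.82, adjusted p = 0.905) at day 3. Without day 0 replicate 4 it was 0.42 (adjusted p = 0.208) at day 1, the opposite sign, and 0.71 (adjusted p = 0.0550) at day 3. Within 1-digit and 3-digit libraries Ptpro stood at -0.24 and -0.21 at day 1 (adjusted p = 0.630 and 0.745) and at 0.19 and -0.03 at day 3 (adjusted p = 0.737 and 0.962).

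In day 0 replicate 4, the summed glomerular endothelium markers (437 CPM, beside 221 to 245 CPM in the other day 0 libraries) and B cell markers (2.18 CPM, beside 0.505 to 1.12 CPM) were also the highest of that day. So were the sums of 5 more of the 10 lists, namely endothelium, parietal epithelium, mesothelium, tubular injury and the other podocyte genes described later. Macrophage markers (131 CPM, beside 139 to 220 CPM) and those of mesangium and pericytes were the lowest. Their part in the Ptpro value was not tested.

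Synpo encodes synaptopodin, an actin-associated protein of the foot processes, from chr18:60593973-60660142 on the minus strand. Its level was 27.4, 34.5, 30.9 and 27.8 CPM at day 0. At day 1 it was 67.9 and 64.3 CPM in the 3-digit and 29.7, 32.7 and 47.5 CPM in the 1-digit libraries. At day 3 it was 45.0, 30.8 and 48.6 CPM in the 3-digit and 55.7 and 81.0 CPM in the 1-digit libraries. The high format was the 3-digit one at day 1 and the 1-digit one at day 3, the reverse of Nphs1, and both days overlapped day 0. Synpo rose by 0.79 on the log2 scale at day 3 (SE 0.28, 95% interval 0.19 to 1.39, adjusted p = 0.0429), with 4 of 5 libraries above all of day 0. At day 1 the log2 fold change was 0.68 (SE 0.28, 0.08 to 1.28, adjusted p = 0.0629), which passed the test without day 1 replicate 3 or 4 or day 3 replicate 2 or 5 (adjusted p from 0.0287 to 0.0425), with DESeq2 (0.0418) and with only the 2 days compared (0.0396).

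The day 3 call of Synpo did not hold without day 0 replicate 1, 2, 3 or 4, day 1 replicate 5 or day 3 replicate 1, 3, 4 or 5, with adjusted p-values up to 0.108 and log2 fold changes of 0.59 to 0.93 over all 14 omissions. It was also lost without a filter (adjusted p = 0.0568), with number format as a term (adjusted p = 0.0560) and with the replicate number as a block (0.68, adjusted p = 0.112). Relative to day 0, Synpo rose in 3-digit libraries at day 1 (1.13, SE 0.21, adjusted p = 0.00124) and in 1-digit libraries at day 3 (1.18, SE 0.21, adjusted p = 0.000627). The log2 fold change was 0.28 (-0.14 to 0.70, adjusted p = 0.236) in the 1-digit libraries of day 1 and 0.46 (0.04 to 0.88, adjusted p = 0.0872) in the 3-digit libraries of day 3. From day 1 to day 3 it rose by 0.90 within 1-digit libraries (SE 0.23, adjusted p = 0.0106), while the 3-digit value was -0.67 (SE 0.23, adjusted p = 0.0687).

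Plce1 encodes phospholipase C epsilon, a signalling enzyme whose loss is known to cause nephrotic syndrome. Its level was 7.08, 5.59, 5.87 and 6.83 CPM at day 0. At day 1 it was 8.46 and 9.95 CPM in the 3-digit and 8.25, 6.52 and 8.61 CPM in the 1-digit libraries. At day 3 it was 9.16, 7.66 and 12.8 CPM in the 3-digit and 7.53 and 8.15 CPM in the 1-digit libraries. Each day 3 library lay above each day 0 library, the 1 member of which this was true at day 3, beside 33.4% of all genes whose day 3 and day 0 libraries did not overlap. The log2 fold change did not pass the test at day 3 (0.51, 0.09 to 0.94, adjusted p = 0.0604) or at day 1 (0.40, -0.03 to 0.82, adjusted p = 0.120). It passed at day 3 without day 3 replicate 2 (0.57, adjusted p = 0.0424), with total counts without TMM (0.66, adjusted p = 0.0415) and with DESeq2 (0.50, adjusted p = 0.0369). Within formats Plce1 passed the test for 3-digit libraries of day 3 (0.64, SE 0.20, adjusted p = 0.0244), and the 1-digit value was 0.31 (adjusted p = 0.266), with no call between formats (log2 difference 0.33, adjusted p = 0.330). At day 1 the values were 0.29 (adjusted p = 0.221) in 1-digit and 0.54 (adjusted p = 0.0647) in 3-digit libraries.

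Wt1 encodes the zinc finger transcription factor that maintains podocyte identity. Its level was 5.69, 6.24, 7.14 and 5.26 CPM at day 0. Day 1 libraries had 8.03 and 6.95 CPM in the 3-digit and 5.86, 4.97 and 4.99 CPM in the 1-digit libraries. Day 3 libraries had 7.79, 6.81 and 8.17 CPM in the 3-digit and 7.53 and 6.17 CPM in the 1-digit libraries. The days overlapped, and within day 1 the 3-digit libraries lay above the 1-digit libraries. The log2 fold change was 0.02 (-0.40 to 0.44, adjusted p = 0.940) at day 1 and 0.26 (-0.16 to 0.68, adjusted p = 0.313) at day 3. In 1-digit and 3-digit libraries Wt1 stood at -0.21 and 0.30 at day 1 (adjusted p = 0.338 and 0.237), of opposite sign, and at 0.17 and 0.32 at day 3 (adjusted p = 0.480 and 0.176).

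Members also differed between number formats within a day. At day 1, 3 of 7 differed between 3-digit and 1-digit libraries, beside 35.0% of all genes. Nphs1 was lower in 3-digit libraries (log2 difference -1.28, SE 0.36, adjusted p = 0.0168), Podxl was lower (-0.48, SE 0.15, adjusted p = 0.0274) and Synpo was higher (0.85, SE 0.23, adjusted p = 0.0128). Wt1 had a log2 difference of 0.50 (0.06 to 0.95, adjusted p = 0.0752). In 4 members, these and Wt1, the formats did not overlap, as in 60.7% of all genes. Leaving out day 1 replicate 1 or 2 leaves 1 library in the 3-digit arm, assumed to vary like the other groups. Without replicate 1 Nphs1, Podxl and Synpo stood at -0.995, -0.58 and 0.80 and were not called (adjusted p = 0.130, 0.0543 and 0.0609), and without replicate 2 Podxl at -0.39 and Synpo at 0.89 were not (adjusted p = 0.201 and 0.0611). With 2 libraries left in each arm or more, leaving out replicate 3 lost the call of Nphs1 (adjusted p = 0.0516) and replicate 5 that of Podxl (adjusted p = 0.0921). With total counts without TMM, Podxl was no longer called (-0.27, adjusted p = 0.194) and Wt1 was (0.72, adjusted p = 0.0171).

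At day 3, 2 of 7 members differed between formats, beside 18.5% of all genes. Without day 3 replicate 4 or 5 the 1-digit arm is 1 library, again assumed to vary like the others, so values for those omissions set a single library against 3. Podxl was lower in 3-digit libraries (-0.75, SE 0.15, adjusted p = 0.00776), a call lost without day 3 replicate 5 (-0.76, adjusted p = 0.0696). Synpo was lower too (-0.72, SE 0.23, adjusted p = 0.0450), and that call did not hold without day 0 replicate 1, 2, 3 or 4, day 1 replicate 1, 2 or 4, or day 3 replicate 2, 3 or 5 (adjusted p up to 0.353), or with total counts without TMM (adjusted p = 0.0718). Nphs1 had a log2 difference of 1.11 (0.32 to 1.90, adjusted p = 0.0513), which was called without day 3 replicate 1 (1.15, adjusted p = 0.0453) or day 1 replicate 4 (1.11, adjusted p = 0.0435). With replicate 5 as the single 1-digit library it was 1.95 (adjusted p = 0.00958), and with replicate 4 as that library 0.57 (adjusted p = 0.373). It was also called with the unstranded counts (1.20, adjusted p = 0.0402), total counts without TMM (1.18, adjusted p = 0.0415), no filter (1.12, adjusted p = 0.0468) and DESeq2 (1.11, adjusted p = 0.0176). Magi2 had a log2 difference of 0.42 (adjusted p = 0.316), which was 1.02 (adjusted p = 0.0420) with replicate 5 as the single 1-digit library and -0.026 (adjusted p = 0.969) with replicate 4. The formats did not overlap in 3 members, Nphs1, Podxl and Synpo, as in 41.4% of all genes.

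The format difference itself changed between the days in 2 of 7 members, beside 17.6% of all genes. For Nphs1 the day 3 difference minus the day 1 difference was 2.38 on the log2 scale (SE 0.52, 95% interval 1.27 to 3.50, adjusted p = 0.00791), and for Synpo it was -1.57 (SE 0.33, -2.27 to -0.87, adjusted p = 0.00635). Both were called without any 1 of the 14 libraries, with adjusted p-values up to 0.0454 and 0.0319. For Podxl, whose 3-digit libraries were lower at both days, it was -0.27 (-0.73 to 0.18, adjusted p = 0.394). Counting the members called within formats against day 0 gave 2 of 7 in 1-digit libraries of day 1, beside 58.5% of all genes, and 3 in 3-digit libraries, beside 41.6%. At day 3 it gave 3 in 1-digit libraries, beside 53.7%, and 1 in 3-digit libraries, beside 32.4%. From day 1 to day 3 it gave 2 within 1-digit libraries, beside 32.0%, and 0 by edgeR within 3-digit libraries, beside 13.9%. Within the latter, 3 had an unadjusted p under 0.05, and a fit without the 1-digit libraries of days 1 and 3 called 2. No share of all genes is given here for either of these counts. In this step from day 1 to day 3, Podxl, Ptpro, Plce1 and Wt1 had values of 0.01 to 0.44 within formats (adjusted p from 0.161 to 0.976).

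**Figure D3:**
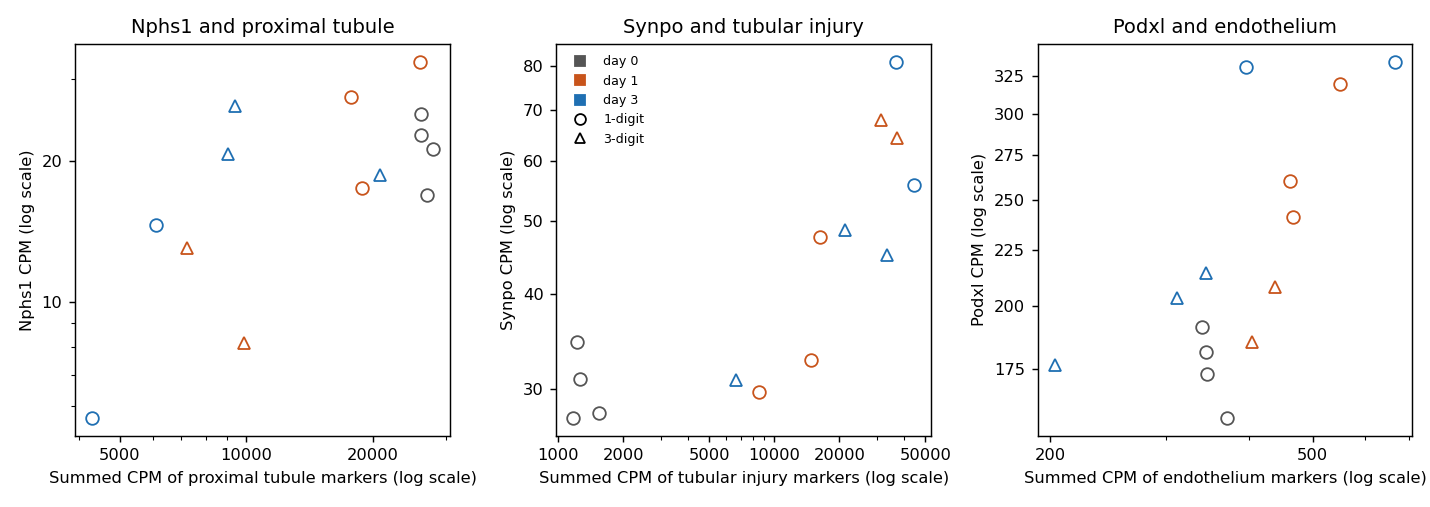
Level of 3 members in each library (log axis, CPM) against the summed CPM (log axis) of a marker list: Nphs1 with proximal tubule, Synpo with tubular injury, and Podxl with endothelium. Colour gives the day and symbol the number format; the 1-digit libraries of day 3 and the 3-digit libraries of day 1 are low in both proximal tubule markers and Nphs1, and are high in both injury markers and Synpo, while day 3 replicates 1 and 3 (3-digit) have low proximal tubule sums without low Nphs1.

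Markers of other kidney cells moved between the same libraries, and these pairings of lists with members, except endothelium with Podxl, were picked after the values were seen. The summed level of 10 proximal tubule markers, led by Acsm2 and Slc27a2, was 26053 to 27852 CPM at day 0, 17740 to 25968 CPM in 1-digit and 7239 to 9879 CPM in 3-digit libraries of day 1, and 4296 to 6109 CPM in 1-digit and 9050 to 20860 CPM in 3-digit libraries of day 3. The formats thus stood in the same order as for Nphs1. The summed level of 7 tubular injury markers, led by Spp1 and Clu, was 1174 to 1543 CPM at day 0, 8461 to 16323 CPM in 1-digit and 31256 to 37021 CPM in 3-digit libraries of day 1, and 36655 to 44400 CPM in 1-digit and 6667 to 33364 CPM in 3-digit libraries of day 3. Here the order of the sums was that of Synpo, and Spp1 alone had a mean of 16690 CPM at day 1. The single injury markers did not all share that order: Krt20, Sox9 and Vcam1 at day 1 and Havcr1 and Vcam1 at day 3, named after their values were seen, had format differences of the opposite sign, and none of these passed the test. Single libraries also broke the match: day 3 replicates 1 and 3, of 3 digits, had proximal tubule sums of 9050 and 9396 CPM with Nphs1 at 20.7 and 26.2 CPM, and day 3 replicate 1 had an injury sum of 33364 CPM with Synpo at 45.0 CPM. The part of either in the Nphs1 and Synpo results was not tested.

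Over all genes tested, 23.3% were higher and 18.7% lower at day 1, and 19.5% higher and 13.8% lower at day 3. Within formats of day 1 the shares were 28.9% and 29.6% in 1-digit and 22.6% and 19.0% in 3-digit libraries. At day 3 they were 28.6% and 25.1% in 1-digit and 19.1% and 13.3% in 3-digit libraries. The counts of markers that follow are to be read beside these shares. By test, 3 of 10 proximal tubule markers were lower at day 1 and 5 at day 3. Within formats, 8 of the 10 were lower in the 3-digit libraries of day 1 and in the 1-digit libraries of day 3, and 4 in the 1-digit libraries of day 1 and in the 3-digit libraries of day 3. Of 7 injury markers 6 were higher at each day, and within formats 6 or 7. Of 8 endothelial markers 2 were higher and 1 lower at day 1, and of 5 glomerular endothelium markers tested 1 was higher and 1 lower. Within formats the endothelial counts at day 1 were 4 higher and 2 lower in 1-digit and 3 and 1 in 3-digit libraries, and those of glomerular endothelium 2 and 1 and 0 and 1. At day 3 none of either list passed with all libraries, while 5 of 8 and 4 of 5 were higher in 1-digit libraries and 2 and 1 were lower in 3-digit libraries. Of 6 mesangium and pericyte markers tested 2 were higher at day 1 and 3 at day 3. Of 5 parietal epithelium markers, a list with sums of 207 to 296 CPM at day 0, 374 to 889 CPM at day 1 and 526.1 to 666 CPM at day 3, 2 were higher at day 1 and 3 at day 3. Of 3 mesothelium markers tested 1 was lower at each day (Gpm6a leads this list) and 1 was higher at day 3, with sums of 172 to 249, 56.2 to 73.7 and 28.9 to 96.3 CPM. These sums were mostly Gpm6a, with a mean of 212 CPM at day 0 beside 4.22 for Upk3b and 0.750 for Msln. Msln, named after its values were seen, was the marker higher at day 3 (log2 fold change 3.76, adjusted p = 0.0252). Of 8 macrophage markers 2 were higher and 1 lower at day 1, and 3 higher and 1 lower at day 3. Within formats, the macrophage list had 2 higher and 3 lower in 1-digit and 2 and 1 in 3-digit libraries of day 1, and 2 and 2 in 1-digit and 6 and 1 in 3-digit libraries of day 3. The parietal epithelium list had 1 higher and 1 lower in 1-digit and 4 and 0 in 3-digit libraries of day 1, and 3 and 4 higher at day 3. The mesangium and pericyte list had 3 higher in each format of each day, with 1 lower in 3-digit libraries of day 1 and in 1-digit libraries of day 3. Mesothelium had 2 lower in 1-digit libraries of day 1 and 1 higher and 1 lower in each of the others. B cell markers summed to at most 2.18 CPM in any library, and the 1 that was tested did not pass.

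A wider list of 39 other podocyte genes, drawn up from general knowledge, was counted beside the members, and 37 of them passed the expression filter, without Trpc6 and Lmx1b. At day 1, 9 were higher than at day 0, 14 lower and 14 did not pass the test, beside 23.3% higher and 18.7% lower over all genes, with a median log2 fold change of -0.31 beside 0.01. Within 1-digit libraries of day 1, 10 were higher and 17 lower (median -0.48), beside 28.9% and 29.6% of all genes, and within 3-digit libraries 7 were higher and 12 lower (median -0.13), beside 22.6% and 19.0%. At day 3, 9 were higher, 8 lower and 20 did not pass, beside 19.5% and 13.8%, with a median of 0.00 beside 0.05. There the counts were 10 higher and 11 lower in 1-digit libraries (median -0.18), beside 28.6% and 25.1%, and 9 and 5 in 3-digit libraries (median 0.05), beside 19.1% and 13.3%. From day 1 to day 3, 9 were higher and 28 did not pass, beside 8.52% higher and 7.39% lower, with a median of 0.30 beside 0.02. Within 1-digit libraries this step gave 10 higher and 3 lower, beside 16.5% and 15.5%, and within 3-digit libraries 6 and 0, beside 7.50% and 6.41%.

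The list marks 21 of these genes as made widely by other kidney cells. Of the 16 tested genes without that mark, 1 was higher and 7 were lower at day 1, beside 23.3% and 18.7% of all genes, although 3 of the lower ones, Col4a3, Col4a4 and Npnt, are known to be made by tubular segments as well. Kirrel, which encodes the nephrin partner Neph1, was the higher one (log2 fold change 1.11, SE 0.24, adjusted p = 0.00276). The other lower ones were Arhgap24, Robo2, Thsd7a and Tcf21. Within formats, 2 of the 16 were higher and 9 lower in 1-digit libraries of day 1, beside 28.9% and 29.6%, and 1 and 7 in 3-digit libraries, beside 22.6% and 19.0%. At day 3, 1 of the 16 was higher and 4 were lower, beside 19.5% and 13.8%, with 1 and 5 in 1-digit (beside 28.6% and 25.1%) and 1 and 2 in 3-digit libraries (beside 19.1% and 13.3%). From day 1 to day 3, 5 were higher, beside 8.52%, with 5 higher and 1 lower in 1-digit (beside 16.5% and 15.5%) and 4 and 0 in 3-digit libraries (beside 7.50% and 6.41%). The median log2 fold change of the 16 was -0.64 at day 1, -0.06 at day 3 and 0.61 between the days, beside 0.01, 0.05 and 0.02 over all genes.

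**Figure D4:**
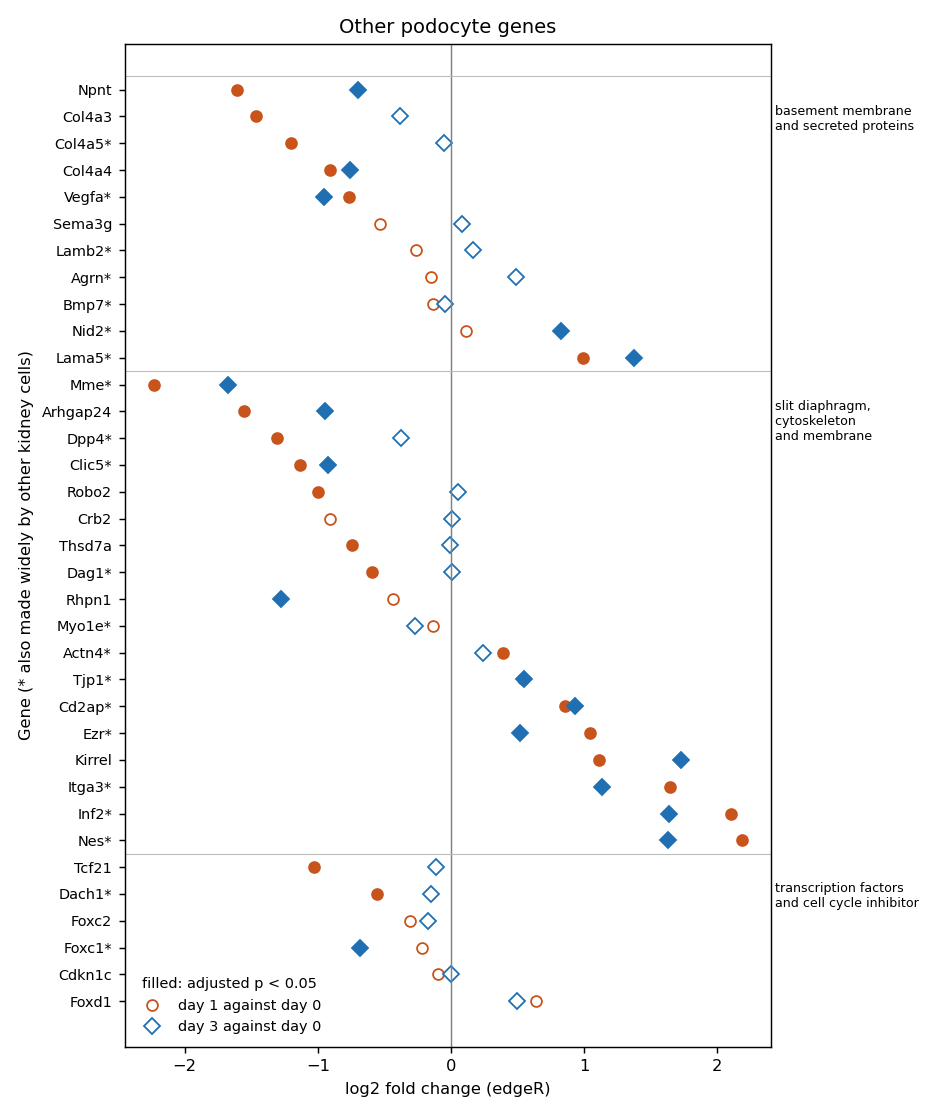
Log2 fold change against day 0 of other podocyte genes that were tested and are named here, at day 1 (circles) and day 3 (diamonds), grouped by role and ordered by the day 1 value; filled symbols have an adjusted p under 0.05. Genes with a star are those marked in the list as made widely by other kidney cells. Values run from Mme at -2.23 to Nes at 2.18 at day 1.

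Among 19 slit diaphragm, cytoskeleton and membrane genes tested, 8 were higher and 7 lower at day 1, and 7 higher and 4 lower at day 3, to be read beside the shares of all genes given above. The counts within 1-digit libraries were 8 and 9 at day 1 and 8 and 6 at day 3, and within 3-digit libraries 6 and 7 and then 7 and 3. The 4 most abundant at day 0 went both ways. Ezr, which encodes ezrin, a linker of podocalyxin to actin, rose from 478 ± 17.3 CPM (SD, n = 4) to 983 ± 273 at day 1 (n = 5, log2 fold change 1.04, adjusted p = 0.000862) and 685 ± 47.6 at day 3 (n = 5, 0.52, adjusted p = 0.0431). Actn4, an actin crosslinker, rose from 392 ± 13.9 to 514 ± 68.9 CPM at day 1 (0.39, adjusted p = 0.0497) and stood at 464 ± 85.2 at day 3 (0.24, adjusted p = 0.226). Mme, the membrane protease neprilysin, which proximal tubule also makes, fell from 284 ± 40.8 to 60.6 ± 5.995 CPM (-2.23, adjusted p = 4.06e-05) and 88.8 ± 39.6 CPM (-1.68, adjusted p = 0.000396). Arhgap24, a GTPase regulator, fell from 255 ± 6.76 to 86.9 ± 23.6 CPM (-1.55, adjusted p = 0.000845) and 132 ± 59.0 CPM (-0.95, adjusted p = 0.0184). Each of these calls of Ezr and Mme held within both formats. By the test between formats, the size differed for Ezr at day 1 (log2 difference -0.78, adjusted p = 0.00133) and for Mme at day 3 (0.98, adjusted p = 0.0187). It did not pass for Ezr at day 3 or Mme at day 1 (adjusted p = 0.947 and 0.457). The day 1 call of Actn4 held in 1-digit (0.52, adjusted p = 0.00181) but not in 3-digit libraries (0.18, adjusted p = 0.282), and the day 3 call of Arhgap24 in 1-digit (-1.57, adjusted p = 0.000877) but not in 3-digit libraries (-0.64, adjusted p = 0.0638). The test between formats did not call Actn4 at day 1 (adjusted p = 0.0759) and called Arhgap24 at day 3 (0.93, adjusted p = 0.0480).

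Among 7 transcription factors and cell cycle regulators tested, Tcf21 and Dach1 were lower at day 1 and Foxc1 at day 3, that is 2 and 1 of 7 beside 18.7% and 13.8% of all genes. In 1-digit libraries of day 1, 1 of the 7 was higher and 2 were lower, beside 28.9% and 29.6% of all genes. The higher one was Foxd1 (0.86, adjusted p = 0.0343), with a mean of 0.79 CPM at day 0. None passed in 3-digit libraries of day 1 or in either format of day 3. Within formats of day 1, Tcf21 was -1.25 (adjusted p = 0.00465) in 1-digit and -0.76 (adjusted p = 0.104) in 3-digit libraries and Dach1 -0.64 (adjusted p = 0.0255) and -0.44 (adjusted p = 0.176), and the test between formats called neither (adjusted p = 0.320 and 0.586). At day 3 Foxc1 was -0.66 and -0.70 (adjusted p = 0.0869 and 0.0630). Cdkn1c, a cell cycle inhibitor of mature podocytes, stood at 21.9 ± 2.81 CPM at day 0, 20.5 ± 1.74 at day 1 and 21.9 ± 6.36 at day 3 (adjusted p = 0.721 and 0.993). Dach1 fell from 18.1 ± 1.79 to 12.3 ± 2.18 CPM at day 1 (-0.56, adjusted p = 0.0390) and stood at 16.3 ± 4.30 at day 3. Foxc1 had 13.1 ± 1.80 and 11.3 ± 3.16 CPM at day 0 and day 1 and fell to 8.16 ± 2.37 CPM at day 3 (-0.68, adjusted p = 0.0498).

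Among 11 basement membrane and secreted proteins, 1 was higher and 5 lower at day 1, and 2 higher and 3 lower at day 3, beside the same shares of all genes. In 1-digit libraries 1 was higher and 6 lower at day 1 and 2 and 5 at day 3, and in 3-digit libraries 1 and 5 and then 2 and 2. Col4a3, a collagen chain of the mature glomerular basement membrane, fell from 273 ± 22.9 to 99.1 ± 19.3 CPM at day 1 (-1.46, adjusted p = 0.00123) and was higher at day 3 than at day 1, at 210 ± 82.7 CPM (1.08, adjusted p = 0.0162). That step of Col4a3 was called within 3-digit libraries (1.54, adjusted p = 0.00936) and not within 1-digit libraries (0.40, adjusted p = 0.336), where it was still lower than at day 0 at day 3 (-0.97, adjusted p = 0.0156). The difference of those 2 steps did not pass the test (1.14, adjusted p = 0.0861). Col4a4, its partner chain, fell from 249 ± 13.7 to 132 ± 53.2 and 147 ± 37.1 CPM (-0.91 and -0.76, adjusted p = 0.0131 and 0.0377). Npnt, a matrix ligand of integrins, fell from 224 ± 10.8 to 73.4 ± 22.4 and 138 ± 51.8 CPM (-1.61 and -0.69, adjusted p = 0.000307 and 0.0423). Vegfa, the growth factor on which glomerular endothelium depends, fell from 186 ± 17.6 to 109 ± 26.8 and 96.3 ± 37.2 CPM (-0.77 and -0.95, adjusted p = 0.0194 and 0.00841). These falls of Col4a3, Col4a4, Npnt and Vegfa were called in both formats, except that of Npnt in the 3-digit libraries of day 3 (-0.44, adjusted p = 0.114), where the difference between formats did not pass the test (adjusted p = 0.0540). The size differed by that test for Col4a4 at day 1 (log2 difference -0.97, adjusted p = 0.00611) and for Vegfa at day 3 (0.78, adjusted p = 0.0316). It did not pass for the other falls (adjusted p up to 0.524).

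The 7 members did not share 1 pattern across the 14 libraries, which share days, formats and depth. Of the 21 pairs of members, 10 had a positive Pearson r of log2 CPM and the median r was -0.00796. The lowest was -0.709 for Nphs1 and Synpo and the highest 0.536 for Podxl and Synpo. Plce1 had the highest r with the mean of the standardised members (0.784), although it is part of that mean, and Nphs1 the lowest (-0.042).

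Among 13319 other genes with a mean of at least 1 CPM, those whose pattern was most like that mean were Zfp648 (r = 0.890), Ugt1a1 (0.861), Rgn (0.854), Prune2 (0.847), Chil3 (0.836), Mfsd7b (0.836), Prkg1 (0.836), Agt (0.832), Pde3b (0.830) and Dclk1 (0.828). Of these 10, 0 were in the list of other podocyte genes. The best of the latter was Kirrel, at rank 841 with an r of 0.576. The median r was 0.188 over the 37 other podocyte genes tested and 0.0113 over all genes.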

How the data were processed

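Total RNA of 14 kidney libraries was sequenced (TRIzol, Illumina TruSeq). The submitters' processing notes name Trimmomatic, STAR and mm10; no version, parameter or annotation is named in the sources used here. The authors deposited raw read counts for each gene in 1 unstranded and 2 stranded columns, and the column of the opposite strand, which held 98.5% to 98.7% of the strand-assigned reads, was used. The 4 STAR summary entries without a gene took 29.0% to 38.3% of each library and entered no test. Depth per library was 12485579 to 20476979 reads on genes, and replicates differed by more than sampling noise (chi-square over degrees of freedom from 5.69 to 228), so none was counted as a repeat.

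Counts were filtered with filterByExpr by day and scaled by TMM in edgeR 4.0.16 (R 4.3.3, limma 3.58.1), which left 14300 genes. The quasi-likelihood test had 1 term per day, or 1 per day and number format, fitted to all 14 libraries, with p-values adjusted by Benjamini-Hochberg across genes and calls at an adjusted p under 0.05. Standard errors came from the F value. On simulated counts for 14146 genes with 199 changed between day 1 and day 0, edgeR recovered 183 in 190 calls and DESeq2 188 in 217. DESeq2 thus called more unchanged genes than edgeR did. The planted changes were large (median absolute log2 fold change 1.99 by edgeR), and no difference between formats was planted. How the day test fares with smaller changes or with format differences was therefore not tested. CPM were TMM-scaled, log2 CPM used a prior count of 2, and lengths were the union of exons in GENCODE M21. Tables used Python 3.11.15 and pandas 2.3.3.

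Members were taken by symbol and given in full. Of other podocyte genes the 4 of each role with the highest mean CPM at day 0 were named with values, of other lists the summed CPM with at most the 2 most abundant genes, and the 10 genes most like the members by Pearson r. Others are named by call only, and 2 genes of that list are counted but not reported here by name. The members and lists were chosen with earlier results of these data known. Same-numbered replicates were not paired by the labels, and the replicate number was used as a block in 1 alternative. Other alternatives were the unstranded column, RLE factors, total counts, no filter, at least 10 counts per library, a threshold of 1 on the absolute log2 fold change, DESeq2 1.42.0, only the 2 days compared, number format as a term, 1 format only, a prior count of 0.5, Spearman correlation, and leaving out each library.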

Additional observations from a re-analysis of the deposited data

Results flagged for a closer look

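The Ptpro level in day 0 replicate 4 was 13.5 CPM (223 reads), far from the other 3 day 0 libraries at 3.41 to 4.67 CPM (58 to 75 reads). It was the 1 of 21 combinations of member and day whose extreme library stood apart by Dixon's criterion, and chance alone gives about 1 in 20. The number format difference (3-digit minus 1-digit) changed between day 1 and day 3 for Nphs1, by 2.38 on the log2 scale, and for Synpo, by -1.57, in a test of the change itself.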

How the results depend on the processing

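Magi2 at day 1 kept its call in each alternative without a fold threshold, and the changes in format difference of Nphs1 and Synpo kept theirs in each. Members called at day 1 (1) numbered 0 with a threshold of 1 on the absolute log2 change, 2 with DESeq2, the format term or only 1-digit libraries, 3 with only the 2 days compared or only 3-digit libraries, and 1 to 2 without 1 library. Members called at day 3 (1) numbered 0 without a filter or with that threshold, 3 with total counts or 1-digit libraries, 2 with DESeq2 or 3-digit libraries, and 0 to 3 without 1 library. Between days (0) they numbered 1 with total counts or DESeq2, 2 with only 1-digit or only 3-digit libraries, and 0 to 1 without 1 library. The test within 3-digit libraries in the fit to all 14 libraries called 0. Between formats the threshold left 1 at day 1 and 0 at day 3, and omissions gave 0 to 3 and 0 to 4, with 2 throughout for the change between days. The threshold left 2963, 2597 and 921 genes for days and 2387 and 1467 for formats; only 2 days gave 831 genes between days 3 and 1, and 1-digit libraries gave 8119 at day 3 and 5194 between days. Omitting 1 library gave 4759 to 6533, 3338 to 5659, 1269 to 3350, 1997 to 5602, 91 to 4771 and 1260 to 3148 genes in the order day 1, day 3, between days, formats at day 1, at day 3 and their change. From day 1 to day 3 the sign turned within 3-digit libraries for Nphs1 (1.04) and Synpo (-0.67). Total counts without TMM moved the median gene by 0.14 at day 3, 0.15 between days, 0.21 between formats of day 1 and -0.17 in their change. Same-numbered libraries were not paired (correlations of deviations -0.175 to 0.261, 4 of 13 over 0.1); with the replicate number as a block, 0 members were called at day 3, where Synpo was 0.68 (adjusted p = 0.112), and the other calls of members between days were unchanged. Synpo at day 3 also lost its call without a filter (adjusted p = 0.0568) and with number format as a term (adjusted p = 0.0560). With Spearman's rho, 2 of the 10 most similar genes were shared. Of 987 alternative values for 42 member results, 516 of those without 1 library and 353 of the others kept direction and side of the threshold, and 32 and 12 changed sign, where, apart from the 3-digit values of Nphs1 and Synpo above, neither fit passed the test. The sign of Wt1 at day 1 turned without a filter (-0.0048), with at least 10 counts (-0.0052), with the format term (-0.13) and with 1-digit libraries (-0.17). It turned for Nphs1 at day 1 with 1-digit (0.29) and at day 3 with 3-digit libraries (0.025), for Ptpro at day 3 with 3-digit (-0.031) and for Plce1 between days with 1-digit libraries (-0.0024). With total counts it turned for Nphs1 between days (0.011) and for the format change of Plce1 (-0.072). Omissions turned signs within ranges of -0.39 to 0.040 (Nphs1), -0.44 to 0.42 (Ptpro) and -0.12 to 0.11 (Wt1) at day 1, -0.15 to 0.71 (Ptpro) at day 3, and -0.40 to 0.064 (Nphs1), -0.090 to 0.17 (Podxl), -0.12 to 0.25 (Synpo) and -0.051 to 0.19 (Plce1) between days. For formats the ranges were -0.19 to 0.33 (Magi2) and -0.53 to 0.45 (Ptpro) at day 1, -0.026 to 1.02 (Magi2) and -0.0077 to 0.30 (Wt1) at day 3, and -0.12 to 0.92 (Magi2), -0.67 to 0.31 (Ptpro) and -0.13 to 0.24 (Plce1) for their change. The causes were not tested. Counting error weighs most where reads were few: Magi2, Ptpro, Wt1, Nphs1 and Plce1 had libraries with 56, 58, 62, 77 and 93 reads.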
